A study of Mus musculus with 6 samples.

Results

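The proteins described here shape mitotic chromosomes: Ki-67, the type II topoisomerases and the condensins. Their transcripts were read from all probe sets annotated to exactly one of 9 mouse genes, Mki67, Top2a, Top2b, Smc2, Smc4, Ncapd2, Ncapg, Ncapg2 and Ncaph. These are 9 of 18193 genes and 22 of the 45101 probe sets in the table, 1 for Mki67, 1 for Ncapg2, 2 each for Ncapd2, Ncapg and Ncaph, 3 each for Top2a, Top2b and Smc4, and 5 for Smc2. The genes were named as a family and not by their values, although results of these data were known when they were listed. Gene expression had been measured on 6 Affymetrix mouse arrays with RNA of C2C12 cells, a mouse myoblast line that fuses into myotubes on differentiation. In 3 samples, called PRDM2 KD, the cells were a stable pool transfected with PRDM2 shRNA, and in 3 samples, called GFP, a stable pool transfected with a control GFPshRNA. PRDM2 carries zinc fingers and a PR/SET domain. All 6 samples had spent 48 hours suspended in methyl cellulose, with fetal calf serum at 20%, a step that the labels give as synchronization in G0, the quiescent state. Samples of a group are labelled as biological replicates of 1 pool. Separate transfections and the number of shRNA sequences are not mentioned, so the p-values below measure the spread between these samples. The comparison asks how the transcripts differ between the PRDM2 KD and GFP pools after this suspension step.

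Ki-67 is a large protein that coats the surface of condensed chromosomes and keeps them apart, and it is widely used as a marker of cycling cells because quiescent cells lose it. Topoisomerase II cuts one DNA duplex, passes another through it and reseals the break. Its alpha form, encoded by Top2a, is made in proliferating cells and untangles sister chromatids, whereas the beta form, encoded by Top2b, is also made in cells that no longer divide and serves transcription. Condensins are rings that loop and compact mitotic DNA. Condensin I and condensin II share the ATPases Smc2 and Smc4 and differ in the remaining subunits, which are Ncaph, Ncapd2 and Ncapg in condensin I and Ncaph2, Ncapd3 and Ncapg2 in condensin II. Many genes of G2 and mitosis carry a promoter element called the cell cycle genes homology region (CHR), which is bound by MuvB-type complexes, together with CCAAT boxes bound by NF-Y.

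The promoters of 8 of the 9 genes were matched by symbol in RefSeq sequence of build GRCm38.p6, from 250 bases before to 50 bases after an annotated start. Smc4 had no entry. The 5 printed here are those of Mki67 and Top2a, the genes of the 9 with the lowest log2 differences, of Ncapg and Ncaph, condensin I genes with unlike promoters, and of Top2b, the paralog of Top2a that did not pass the test. Capitals mark every match, on either strand, of TTTGAA (the CHR hexamer), CCAAT (the NF-Y box) or TTCCCGC (an E2F heptamer). A match is a description of the letters and not a binding site. The Mki67 window lies at chr7:135716330-135716629 on the minus strand, that of Top2a at chr11:99024140-99024439 on the minus strand and that of Ncapg at chr5:45669675-45669974 on the plus strand. The window of Ncaph lies at chr2:127133905-127134204 on the minus strand and that of Top2b at chr14:16364956-16365255 on the plus strand.
Mki67: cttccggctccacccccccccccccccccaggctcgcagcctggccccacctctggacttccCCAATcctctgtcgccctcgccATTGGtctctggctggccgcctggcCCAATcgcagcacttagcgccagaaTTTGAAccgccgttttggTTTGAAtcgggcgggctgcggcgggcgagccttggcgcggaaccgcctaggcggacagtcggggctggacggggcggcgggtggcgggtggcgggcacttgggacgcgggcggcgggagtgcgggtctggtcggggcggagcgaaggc
Top2a: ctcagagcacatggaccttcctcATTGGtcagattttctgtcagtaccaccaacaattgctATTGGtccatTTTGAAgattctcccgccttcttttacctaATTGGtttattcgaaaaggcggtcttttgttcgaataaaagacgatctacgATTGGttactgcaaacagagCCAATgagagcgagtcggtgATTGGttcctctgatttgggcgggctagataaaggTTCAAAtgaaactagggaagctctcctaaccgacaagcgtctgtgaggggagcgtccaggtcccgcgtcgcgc
Ncapg: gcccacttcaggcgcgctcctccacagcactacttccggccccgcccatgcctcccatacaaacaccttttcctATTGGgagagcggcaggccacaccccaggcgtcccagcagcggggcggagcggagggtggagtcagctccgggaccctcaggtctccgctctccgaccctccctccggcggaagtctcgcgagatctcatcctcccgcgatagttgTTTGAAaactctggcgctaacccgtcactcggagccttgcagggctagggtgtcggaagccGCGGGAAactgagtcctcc
Ncaph: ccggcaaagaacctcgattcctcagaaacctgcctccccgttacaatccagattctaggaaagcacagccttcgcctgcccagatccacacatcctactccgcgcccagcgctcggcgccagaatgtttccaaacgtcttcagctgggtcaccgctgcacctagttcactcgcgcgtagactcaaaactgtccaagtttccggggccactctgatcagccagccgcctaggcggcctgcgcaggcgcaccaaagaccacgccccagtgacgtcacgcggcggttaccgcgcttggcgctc
Top2b: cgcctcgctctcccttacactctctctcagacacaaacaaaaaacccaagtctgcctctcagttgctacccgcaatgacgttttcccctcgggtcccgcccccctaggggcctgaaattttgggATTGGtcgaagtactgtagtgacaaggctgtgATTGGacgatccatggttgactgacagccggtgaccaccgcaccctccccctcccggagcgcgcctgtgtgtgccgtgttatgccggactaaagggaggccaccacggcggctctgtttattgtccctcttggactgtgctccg

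The CHR hexamer was present in 6 of the 8 windows, all but those of Top2b and Ncaph, and in 17.9% of 32851 promoter windows of the same length. In Mki67 it lay 116 and 98 bases before the start, in Top2a 179 and 23 bases before it and in Ncapg 30 bases before it. The other windows with the hexamer were those of Smc2, Ncapd2 and Ncapg2. The NF-Y box was found in 6 of the 8, all but Ncapg2 and Ncaph, against 37.4% of all windows, with 6 copies in Top2a and 3 each in Mki67 and Ncapd2. The E2F heptamer was found in 2 of the 8, Ncapg and Ncapg2, against 4.60% of all windows. The Ncaph window held none of the 3 motifs and Top2b held 2 NF-Y boxes alone. No matches overlapped one another.

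**Figure D1:**
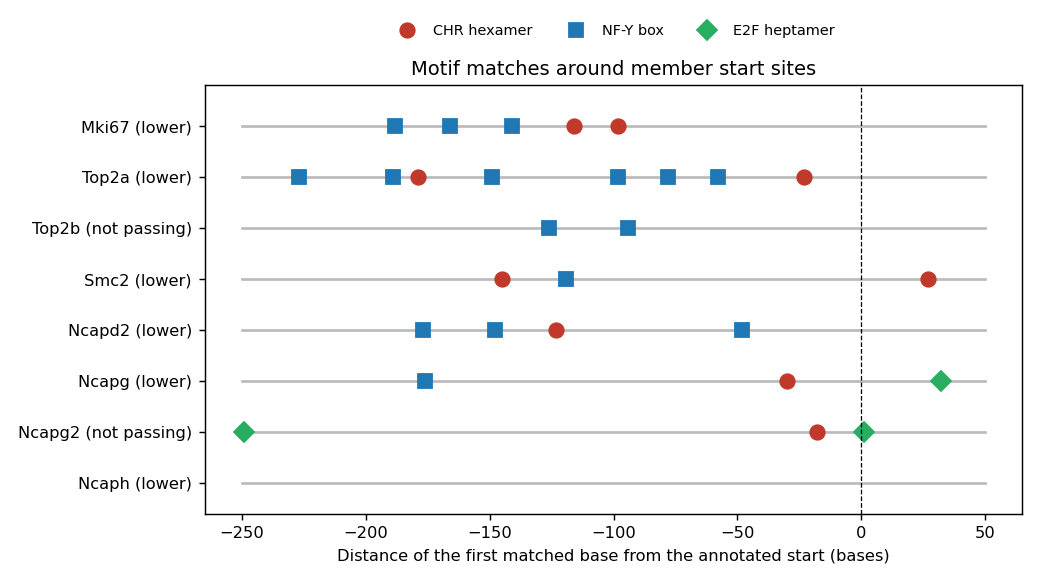
Distance in bases of the first matched base from the annotated start for the 3 motifs, on either strand, in the 8 member promoters (1 row per gene, with its call in PRDM2 KD against GFP; circles, CHR hexamer; squares, NF-Y box; diamonds, E2F heptamer). Top2a carries 6 NF-Y boxes and 2 CHR hexamers, whereas the Ncaph row is empty.

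PRDM2 KD cells had less transcript of Ki-67, topoisomerase II alpha, Smc2 and the condensin I subunits Ncaph, Ncapd2 and Ncapg than GFP cells. Topoisomerase II beta, Smc4 and the condensin II subunit Ncapg2 did not pass the test, although the Ncapg2 groups did not overlap (log2 difference -0.53). The log2 difference, PRDM2 KD minus GFP, was -2.53 for Mki67, -1.99 for Top2a, -1.64 for Ncaph, -1.35 for Ncapg, -1.34 for Smc2 and -1.07 for Ncapd2, each at its probe set with the highest mean over the 6 arrays. The PRDM2 KD values of Mki67 and Ncapg were around or under the median intensity of those arrays, 10.6 to 11.3, so the sizes of these 2 falls are not well set. Those of Ncapd2, 13.3 to 17.3, were not far above that median, which limits the size of its fall too. In the limma fit over 45037 probe sets, with a call at a Benjamini-Hochberg adjusted p under 0.05, 7 of the 22 member probe sets were lower in PRDM2 KD and 0 were higher, against 1.01% lower, 1.42% higher and so 2.43% called of all probe sets. At an unadjusted p under 0.05, 8 were lower and 0 higher. The share of all probe sets at an unadjusted p is not given, here or below, so such counts stand without a background. The 7 fell in 6 genes: at the brightest probe sets, 6 of 9 genes were lower, against 1.64% of 18193 genes. The median log2 difference over the 9 brightest probe sets was -1.34, and -0.0036 over the brightest probe sets of all genes. Here and below, log2 differences are PRDM2 KD minus GFP on quantile-normalized log2(intensity + 16), an offset that understates changes of dim probe sets, and intensities are the deposited values. In bulk RNA, fewer cells of a kind and less RNA per cell cannot be told apart.

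**Figure D2:**
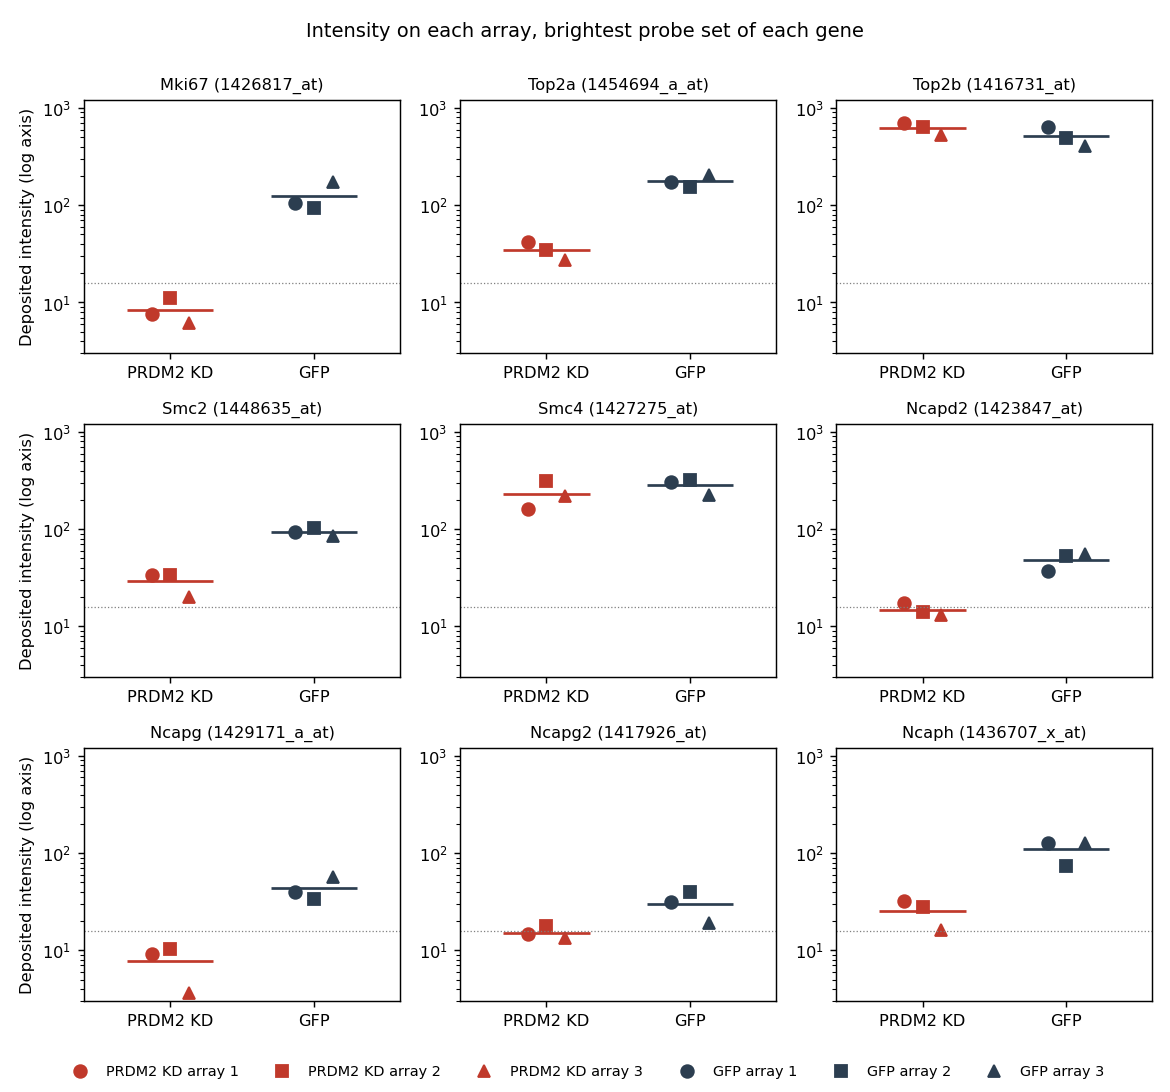
Deposited intensity (log axis) on each array for the brightest probe set of each of the 9 genes, PRDM2 KD left and GFP right, with symbols for array numbers and bars for group means (n = 3 each); the dotted line marks 16, the offset. Mki67 lies between 6.16 and 11 on PRDM2 KD arrays and between 92.7 and 175 on GFP arrays, whereas the groups overlap for Top2b and Smc4.

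The count depended on single arrays and on the variance model. It was 2, 3 and 2 of 22 without PRDM2 KD array 1, 2 or 3, and 4, 6 and 5 without GFP array 1, 2 or 3. With ordinary statistics, which do not share variance between probe sets as limma does, it was 0, with 8 lower and 0 higher at an unadjusted p under 0.05. With an offset of 64 it was 2, and with the probe sets of each gene averaged 4 of 9 genes passed (Mki67, Top2a, Ncapd2 and Ncaph). With the spike signal described next as a block it was 5. The number of all probe sets called also fell when an array was left out and with ordinary statistics, as given in the last section. A lower member count in those settings is therefore not particular to the members.

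The arrays differed in ways that the groups do not account for. Median intensity over the tested probe sets was 10.6 to 11.3 on PRDM2 KD arrays and 10.6 to 12.1 on GFP arrays. The Dap control, a transcript of bacterial origin spiked into the RNA, read 38.8 on PRDM2 KD array 3 and 39.9 on GFP array 3, and 126 to 254 on the remaining 4 arrays. The ratio of the 5' to the 3' probe set of Gapdh, a sign of RNA or cRNA integrity, was 0.704 to 0.977 on PRDM2 KD arrays and 0.0992, 0.904 and 1.14 on GFP arrays, with array 3 the low one. For beta-actin this ratio was 0.299, 0.399 and 0.549 on PRDM2 KD arrays 1 to 3. On GFP arrays 1 to 3 the beta-actin ratio was 0.302, 0.723 and 0.114, again lowest on array 3. Prdm2 itself read 58.0, 51.5 and 29.0 on PRDM2 KD arrays 1 to 3, against 86.2, 73.6 and 47.1 on GFP arrays 1 to 3, at its brightest probe set (log2 difference -0.51, limma adjusted p = 0.441), and none of its 3 probe sets passed.

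Mki67, read by a single probe set (1426817_at), fell furthest of the 9 genes. Its intensities were 7.65, 11 and 6.16 on PRDM2 KD arrays 1 to 3, against 105, 92.7 and 175 on GFP arrays 1 to 3. All PRDM2 KD values were below the offset of 16 and all GFP values well above it, with GFP array 3 the highest. The mean was 8.28 ± 2.50 in PRDM2 KD and 124 ± 44.2 in GFP (SD, n = 3 each), and the log2 difference came to -2.53 with an SE of 0.280 (limma adjusted p = 0.00952). Of 18193 genes, 17 differed at least as far downward, Mki67 included. The limma adjusted p was 0.0626 without PRDM2 KD array 1, 0.0584 without PRDM2 KD array 3 and 0.0603 with an offset of 64, and no lower than 0.000823 in any alternative. With ordinary statistics the adjusted p was 0.126. Without GFP array 3, the array with the low Gapdh ratio, the log2 difference was -2.21; it was -2.14 within the 4 arrays where the spike read higher, and -3.31 for array 3 of PRDM2 KD against array 3 of GFP.

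Top2a, the decatenating topoisomerase of dividing cells, also fell in every PRDM2 KD sample. Probe set 1454694_a_at read 41.9, 34.9 and 27.2 on PRDM2 KD arrays, against 171, 153 and 202 on GFP arrays. The highest PRDM2 KD value was thus under the lowest GFP value. The means were 34.7 ± 7.33 in PRDM2 KD and 176 ± 24.9 in GFP (SD, n = 3 each), with a log2 difference of -1.99 (SE 0.191, limma adjusted p = 0.00593), and limma adjusted p from 0.00116 to 0.0460 over the alternatives fitted to this probe set. The call was lost with ordinary statistics (adjusted p = 0.0926). The other Top2a probe sets were dim in both groups, with means of 9.90 and 0.281 in PRDM2 KD and 10.4 and 0.796 in GFP, and neither passed. At 1442454_at the PRDM2 KD values lay between 6.67 and 14.0 and the GFP values between 6.81 and 15.9.

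Top2b, which encodes the isoform also used by non-dividing cells, did not pass the test. Its brightest probe set (1416731_at) read 705, 636 and 528 on PRDM2 KD arrays, against 643, 490 and 409 on GFP arrays. The groups overlapped, and the log2 difference was 0.20 with a 95% interval of -0.14 to 0.55 (limma adjusted p = 0.727), so a fall as large as that of Top2a lies outside the interval. Probe set 1416732_at varied widely within both groups, from 12.2 to 47.8 in PRDM2 KD and from 3.17 to 35.8 in GFP (log2 difference 0.65, limma adjusted p = 0.694). The third, 1448458_at, stayed under an intensity of 3 on all 6 arrays.

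The contrast between the paralogs was tested within arrays. The log2 value of Top2a minus that of Top2b was -3.59, -3.67 and -3.66 on PRDM2 KD arrays, against -1.79, -1.57 and -0.97 on GFP arrays. The groups did not overlap, and PRDM2 KD minus GFP was -2.20 on the log2 scale (exact two-sided permutation p = 0.1, the smallest that 3 against 3 arrays allow). It was -1.98 without GFP array 3, -1.97 in the 4 arrays where the spike read higher, and -0.95 when each gene's probe sets were averaged.

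Among the condensin ATPases, Smc2 fell and Smc4 did not pass. Each condensin ring holds both as a heterodimer. Smc2 (1448635_at) read 33.4, 33.8 and 20.3 on PRDM2 KD arrays, against 92.6, 102 and 84.9 on GFP arrays. These groups stood apart by more than the spread of either, with means of 29.2 ± 7.70 in PRDM2 KD and 93.3 ± 8.82 in GFP (SD, n = 3 each) and a log2 difference of -1.34 (SE 0.134, limma adjusted p = 0.00674). Over the alternatives fitted to this probe set the limma adjusted p ran from 0.00275 to 0.0484. The call was lost with ordinary statistics (adjusted p = 0.0855) and when the 5 probe sets of Smc2 were averaged (log2 difference -0.37, limma adjusted p = 0.0605). The other 4 probe sets of Smc2 had means under 8 in both groups and did not pass. Without GFP array 3 the log2 difference of the brightest was -1.33.

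Smc4 had 2 well measured probe sets and a dim one. Probe set 1427275_at read 160, 313 and 222 on PRDM2 KD arrays, against 303, 320 and 224 on GFP arrays. PRDM2 KD array 1 was low and array 2 matched the GFP arrays, and the log2 difference was -0.39 (95% interval -0.97 to 0.18, limma adjusted p = 0.668). Probe set 1452197_at read 203, 264 and 146 on PRDM2 KD arrays, against 272, 260 and 192 on GFP arrays (log2 difference -0.34, 95% interval -0.84 to 0.16, limma adjusted p = 0.663). The lower ends of both intervals leave room for a fall of moderate size. The dim one, 1427276_at, read 12.5 to 26.1 in PRDM2 KD and 10.2 to 39.8 in GFP, and the sign of its difference, -0.04, turned in both directions across settings.

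Smc2 and Smc4 were set against each other after their values had been seen, so this is a description without a test. Within arrays, the log2 value of Smc2 minus that of Smc4 was -1.75, -2.74 and -2.67 on PRDM2 KD arrays, against -1.52, -1.50 and -1.28 on GFP arrays. The nearest values, -1.75 in PRDM2 KD and -1.52 in GFP, were close, and the mean difference was -0.95.

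The 3 subunits that belong to condensin I alone were all lower in PRDM2 KD. Ncaph, the kleisin that closes the ring, had 2 probe sets past the threshold. At 1436707_x_at, whose suffix marks probes that can match other sequences, it read 32.0, 28.2 and 16.3 on PRDM2 KD arrays, against 127, 74.6 and 128 on GFP arrays. Each PRDM2 KD value was under the lowest GFP value, that of array 2, and the log2 difference came to -1.64 with an SE of 0.270 (limma adjusted p = 0.0369). At 1423920_at the intensities were 11.3, 15.3 and 8.95 on PRDM2 KD arrays, against 52.7, 45.1 and 62.6 on GFP arrays, and the log2 difference came to -1.34 with an SE of 0.178 (limma adjusted p = 0.0179). These PRDM2 KD values lay near the median intensity of those arrays, so the size of the fall at 1423920_at is not well set.

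Ncapg, a HEAT-repeat subunit of condensin I, was near background in PRDM2 KD. Probe set 1429171_a_at read 9.20, 10.4 and 3.67 on PRDM2 KD arrays, against 40.0, 33.7 and 57.3 on GFP arrays. All PRDM2 KD values were under 16, and GFP array 3 was the highest (log2 difference -1.35, SE 0.233, limma adjusted p = 0.0432). The other, 1429172_a_at, had means of 6.09 ± 3.13 in PRDM2 KD and 10.8 ± 3.89 in GFP (SD, n = 3 each) and did not pass (log2 difference -0.28).

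Ncapd2, the other HEAT-repeat subunit of condensin I, read 17.3, 14.0 and 13.3 on PRDM2 KD arrays, against 36.9, 52.6 and 55.2 on GFP arrays, at 1423847_at. The groups were separate, with a log2 difference of -1.07 (SE 0.160, limma adjusted p = 0.0259). Its probe set 1430010_at had a mean of 11.2 in both groups and did not pass.

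The calls of these condensin I genes rested on the full set of arrays. Without any one of the PRDM2 KD arrays none of them passed, with limma adjusted p from 0.0632 to 0.155 over these 4 probe sets and 3 settings. Leaving out GFP array 1 also ended the calls of Ncapg and both Ncaph probe sets (0.137, 0.146 and 0.0795), leaving out GFP array 2 that of Ncapd2 (0.0652), and leaving out GFP array 3 those of Ncapg and Ncaph at 1436707_x_at (0.0591 and 0.0961). With the spike signal as a block, Ncapg and Ncaph at 1436707_x_at did not pass (0.0736 and 0.0708). Averaging the probe sets of Ncapg gave a log2 difference of -0.82 (limma adjusted p = 0.0666). Over the alternatives fitted to these probe sets the limma adjusted p ranged from 0.0131 to 0.160 for Ncapd2, 0.0103 to 0.155 for Ncapg, 0.00807 to 0.235 for Ncaph at 1436707_x_at and 0.00326 to 0.108 at 1423920_at, and none of their log2 differences changed sign. With ordinary statistics the adjusted p was 0.171, 0.236, 0.228 and 0.152 in the same order. With the replicate number as a block none of these 4 probe sets passed (limma adjusted p = 0.0898, 0.131, 0.0966 and 0.0764, in that order). Within the 4 arrays of higher spike signal none of them passed either. The log2 differences in those arrays were -0.89 for Ncapd2, -0.99 for Ncapg, -1.28 for Ncaph at 1436707_x_at and -1.10 at 1423920_at. For array 3 of PRDM2 KD against array 3 of GFP, which gives no test, they were -1.44, -2.08, -2.35 and -1.83 in the same order.

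Ncapg2, the condensin II counterpart of Ncapg, did not pass the test, although its groups did not overlap. Its single probe set (1417926_at) read 14.8, 17.7 and 13.3 on PRDM2 KD arrays, against 31.2, 40.0 and 19.1 on GFP arrays. The lowest GFP value, that of array 3, was near the highest PRDM2 KD value. The means were 15.2 ± 2.25 in PRDM2 KD and 30.1 ± 10.5 in GFP (SD, n = 3 each), with a log2 difference of -0.53 (SE 0.143, limma adjusted p = 0.166). With array weights the limma adjusted p was 0.0308 and with the Gapdh ratio as a covariate 0.0392, and it reached 0.415 without PRDM2 KD array 1. In all, 7 of the 9 brightest probe sets had PRDM2 KD values wholly under the GFP values, against 9.49% of all genes.

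Ncapg and Ncapg2 were compared within arrays as a planned pair, although the planned pairs were chosen with earlier results of these data known. The log2 value of Ncapg minus that of Ncapg2 was -0.30, -0.34 and -0.59 on PRDM2 KD arrays, against 0.25, -0.18 and 1.16 on GFP arrays. The groups did not overlap, with a difference of -0.82 (exact two-sided permutation p = 0.1, the smallest possible, and the same after adjustment over the 2 planned pairs). GFP array 3 carried much of it: without that array the difference was -0.45, with an offset of 64 it was -0.37, and with the probe sets of each gene averaged it was -0.28.

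**Figure D3:**
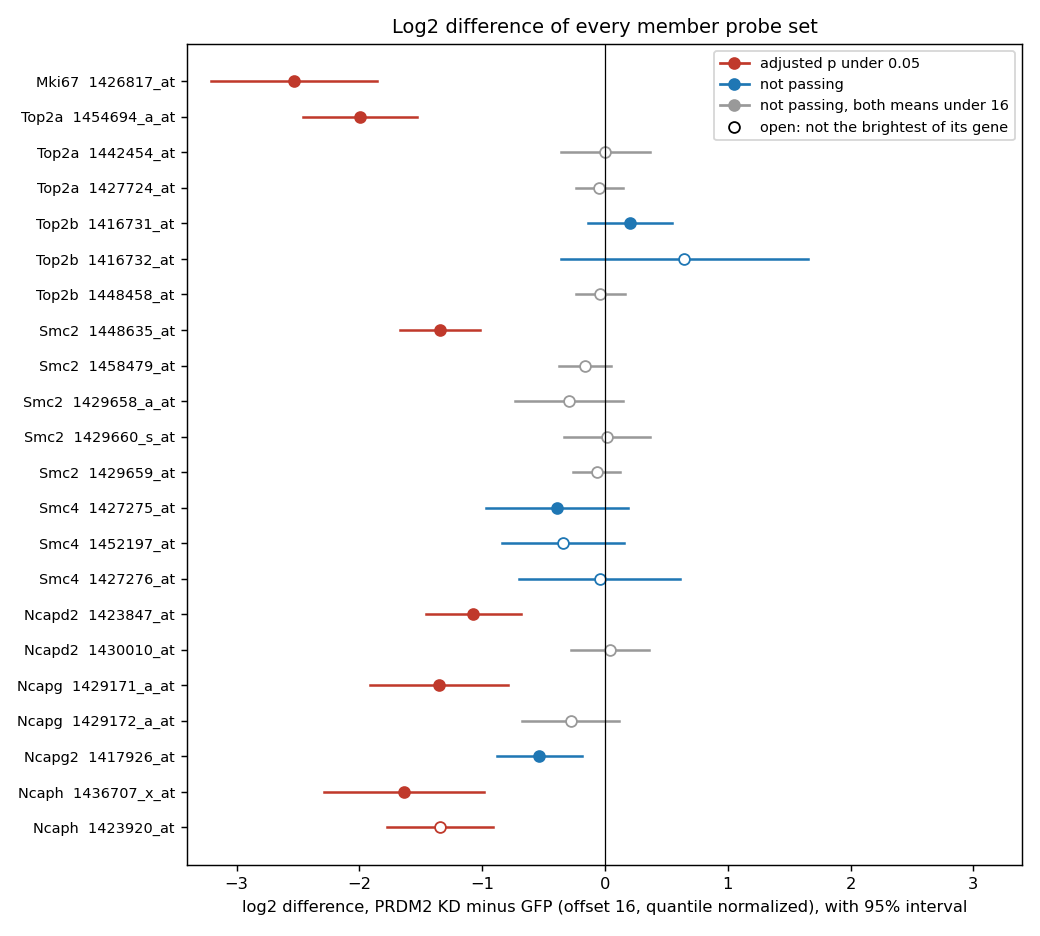
Log2 difference (PRDM2 KD minus GFP) of all 22 member probe sets with 95% limma intervals; red, adjusted p under 0.05; blue, not passing; grey, not passing with both group means under an intensity of 16; filled points are the brightest probe set of each gene. The 9 grey probe sets lie between -0.29 and 0.04, and the 7 red ones lie at -1.07 or lower.

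Probe sets of 1 gene differed in what they showed. Of the 22, 13 had a mean of at least 16 over all 6 arrays, and 5 of these had a PRDM2 KD mean under 16, so that they cleared that level through the GFP arrays. The remaining 9 had both group means under 16, none of them passed, and their log2 differences ran from -0.29 to 0.04. All 13 probe sets that were not the brightest of their gene, apart from 1423920_at of Ncaph, did not pass, with limma adjusted p of 0.604 or more. The sources used here do not say where in each transcript the probe sets lie.

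**Figure D4:**
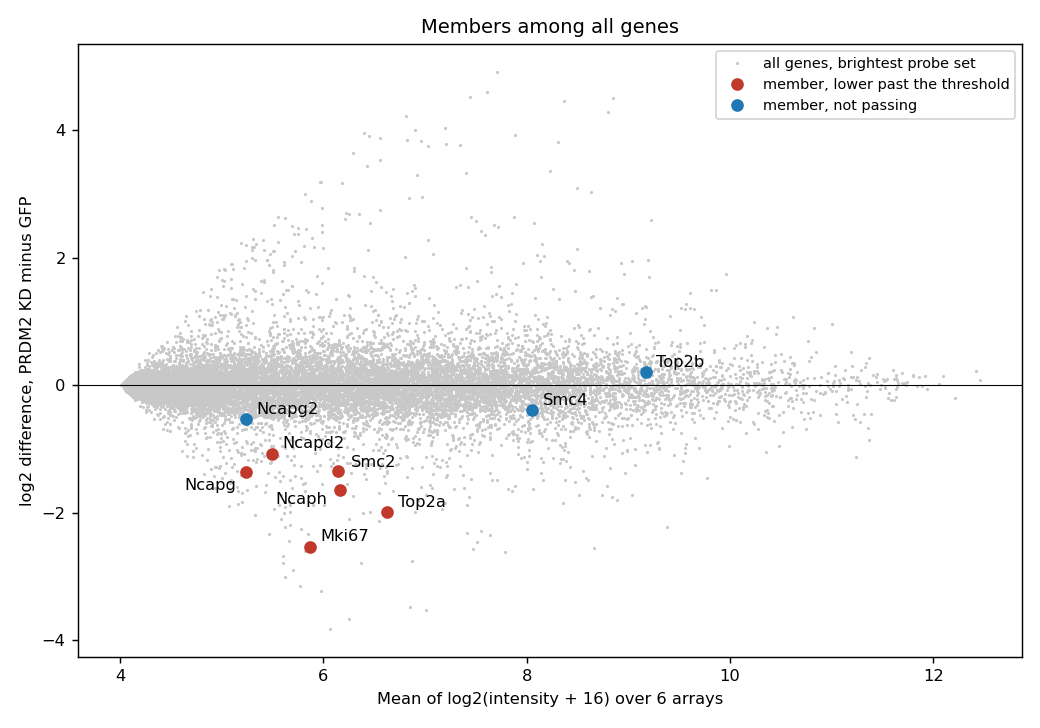
Log2 difference (PRDM2 KD minus GFP) against the mean of log2(intensity + 16) over 6 arrays for the brightest probe set of each of 18193 genes (grey) and of the 9 members (red, lower past the threshold; blue, not passing). Mki67 (-2.53) and Top2a (-1.99) lie on the lower edge of the grey points, and Top2b (0.20) lies within them.

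Neither condensin II subunit outside the 9 genes passed the test. Ncapd3 averaged 42.3 ± 12.9 in PRDM2 KD and 32.1 ± 5.87 in GFP, with a log2 difference of 0.22 (limma adjusted p = 0.740). Ncaph2, the condensin II kleisin, averaged 344 ± 62.6 in PRDM2 KD and 452 ± 33.8 in GFP, with a log2 difference of -0.48 (limma adjusted p = 0.210; SD, n = 3 each). Its groups did not overlap, with 350, 404 and 279 on PRDM2 KD arrays, against 475, 467 and 413 on GFP arrays. Another probe set of Ncaph2 was also separate, with means of 240 in PRDM2 KD and 321 in GFP (log2 difference -0.49, limma adjusted p = 0.144). The remaining Ncaph2 probe sets overlapped (log2 differences -0.079 and 0.011). A fall of Ncaph2 is thus not excluded. Condensin partners and regulators gave no calls either: of 6 measured genes of condensin II and condensin partners, 0 passed, with 2 lower and 0 higher at an unadjusted p under 0.05 and a median of -0.19. Kif4, a chromokinesin that works with condensin I, averaged 5.11 in PRDM2 KD and 16 in GFP (log2 difference -0.61, limma adjusted p = 0.167).

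Other topoisomerases and proteins that act with them did not pass. Of 8 measured genes 0 were called in the limma fit, with 0 lower and 1 higher at an unadjusted p under 0.05 and a median log2 difference of 0.06. The one was Top1, the type I enzyme that relaxes DNA ahead of polymerases, with means of 340 ± 75.9 in PRDM2 KD and 195 ± 58.7 in GFP (SD, n = 3 each; log2 difference 0.68, limma adjusted p = 0.278). Among 8 measured partners of Ki-67 and nucleolar proteins 0 passed, with 1 lower and 2 higher at an unadjusted p under 0.05 and a median of 0.21. Nifk, which binds the forkhead-associated domain of Ki-67, had a log2 difference of 0.28 (limma adjusted p = 0.518). Cdca2, also called Repo-Man, which recruits phosphatase to chromosomes at mitotic exit, averaged 3.27 in PRDM2 KD and 20.4 in GFP at its brightest probe set (log2 difference -0.92, limma adjusted p = 0.0974), and a second probe set of it passed (log2 difference -0.79).

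Cohesin is the ring that holds sister chromatids together until anaphase. Of 23 measured genes of cohesin, its regulators and SMC5/6, 4 fell and 0 rose (6 lower and 2 higher at an unadjusted p under 0.05), with a median of -0.02. The core subunits Smc1a, Smc3 and Rad21 had log2 differences of -0.04, 0.23 and 0.10 and did not pass. The 4 that fell were Espl1, the protease separase (-1.31), Pttg1, its inhibitor securin (-1.48), and the shugoshins Sgo1 (-0.79) and Sgo2a (-1.15), which protect centromeric cohesin. The remaining 19, which include other regulators of cohesin, did not pass. Of 14 measured regulators of mitotic entry, 7 fell and 0 rose, with a median of -0.63. They were Ccna2 (-2.33) and Ccnb2 (-2.04), cyclins of S phase to mitosis, the kinases Cdk1 (-1.20), Plk1 (-1.01), Aurka (-1.22) and Aurkb (-0.92), and the checkpoint kinase Bub1 (-1.87). The PRDM2 KD means of Ccna2 (3.76), Ccnb2 (3.75), Aurka (5.56), Aurkb (2.34) and Bub1 (2.77) were under the median intensity of those arrays. So were those of Espl1 (2.91), Sgo1 (3.32) and Sgo2a (7.10), and the sizes of all these falls are not well set. The transcription factor genes Foxm1 and Mybl2, which drive genes of G2 and mitosis, were dim in both groups and did not pass, with log2 differences of -0.18 and -0.0074. Over the 59 related genes, 11 fell and 0 rose, against 1.64% lower and 2.29% higher of all genes. At an unadjusted p under 0.05, 17 of the 59 were lower and 5 higher. The shares of all genes above are at an adjusted p and cannot be set against these 2 counts. The number that fell was 4, 6 and 7 without PRDM2 KD array 1, 2 or 3 and 5, 10 and 8 without GFP array 1, 2 or 3.

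**Figure D5:**
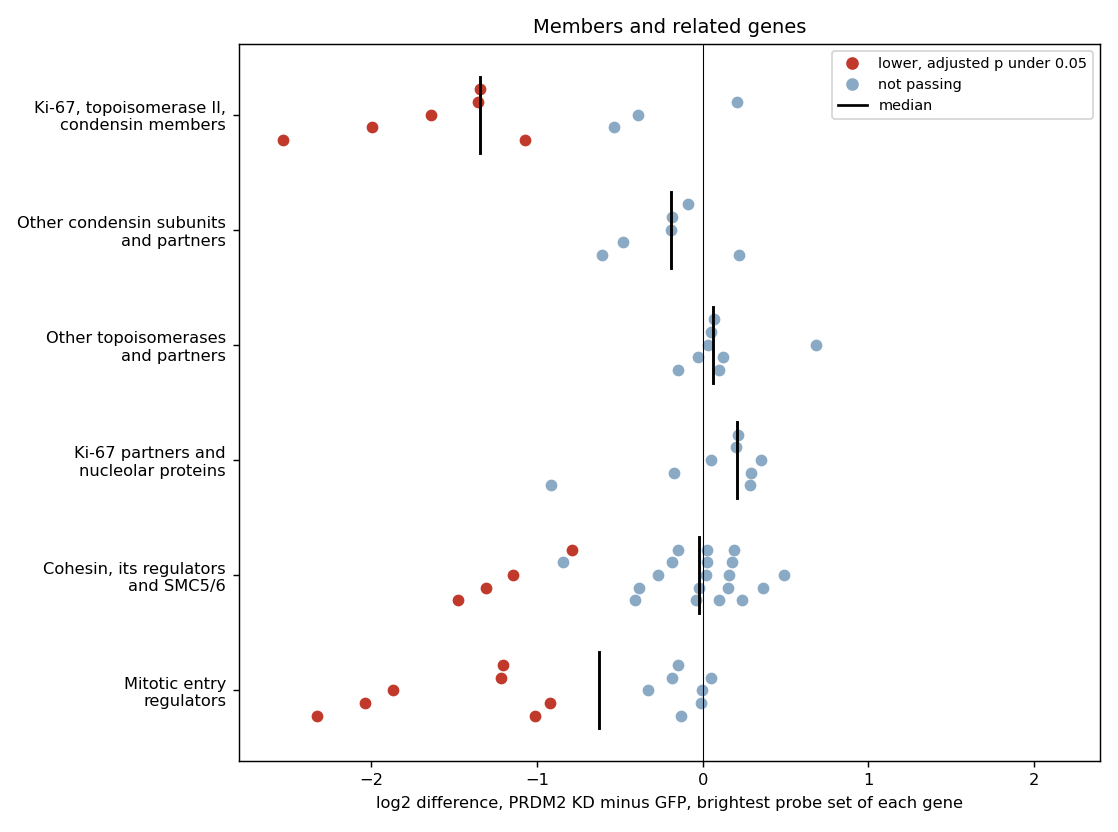
Log2 difference (PRDM2 KD minus GFP) at the brightest probe set of each gene, for the 9 members and 5 lists of related genes (red, lower at an adjusted p under 0.05; pale blue, not passing; black bar, median). The members have a median of -1.34, the regulators of mitotic entry -0.63, and the other lists lie between -0.19 and 0.21.

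The genes whose profiles over the 6 arrays were most like that of Top2a were Ckap2l (Pearson r = 0.999), Cdc20 (0.999), Cenpa (0.998), Blnk (0.998) and Gm6958 (0.995). Ckap2l encodes a spindle protein, Cdc20 a protein that switches on the anaphase-promoting complex and Cenpa the centromeric histone. For Mki67 they were Lmnb1, which encodes lamin B1 (0.995), Defb41 (0.995), Pdlim1 (0.995), Crip1 (0.995) and Hps1 (0.995). These correlations are over 6 arrays that share 1 split into groups, were taken from 9089 candidate genes and describe the profiles without a test.

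Markers of differentiated muscle moved with these transcripts in the opposite direction. Of 12 such genes, 11 rose and 1, Myh8, did not pass, and their summed intensity was 8306 to 10190 on PRDM2 KD arrays and 203 to 463 on GFP arrays. Myog, which encodes myogenin, averaged 557 ± 179 in PRDM2 KD and 25.5 ± 16.2 in GFP (SD, n = 3 each). The part of differentiated cells in the falls of Mki67, Top2a and condensin I was not tested. Of 8 myoblast markers 1 fell (Myf5), 1 rose (Vcam1) and 6 did not pass, with a summed intensity of 1947 to 2266 in PRDM2 KD and 1605 to 2086 in GFP, and Pax7 was near background in both groups. Among markers of other cells, 1 of 7 for fibroblasts rose (Col1a1), with sums of 620 to 721 in PRDM2 KD and 220 to 517 in GFP. None of 6 for macrophages, 5 for endothelium and 3 for adipocytes passed, with 1 lower and 0 higher of these 14 at an unadjusted p under 0.05. Their summed intensities were 91.6 to 137, 16.9 to 20.7 and 15.2 to 23.4 on PRDM2 KD arrays, against 134 to 257, 20.5 to 31.7 and 9.08 to 20.0 on GFP arrays, in the same order. Ptprc, Pecam1, Adipoq and Lep had means under 3 in both groups, but other markers of macrophages and adipocytes were brighter. Csf1r, the macrophage marker lower at an unadjusted p under 0.05, averaged 61.9 in PRDM2 KD and 113 in GFP. Its groups overlapped (log2 difference -0.82, limma adjusted p = 0.319), and its other probe sets did not pass (-0.24 and 0.019). Adgre1 read 19.2 to 32.4 in PRDM2 KD and 16.9 to 46.4 in GFP, and Fabp4 averaged 16.6 in PRDM2 KD and 13.4 in GFP.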

How the data were processed

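Gene expression was measured on 6 Affymetrix arrays, 3 per group. Total RNA came from a Trizol extraction, and 8 µg was made into biotinylated cRNA, per the labels' protocols. The table deposited by the authors gives a linear intensity for each probe set on each array, and it held 0 columns of other samples. The submitters' processing notes list GCOS and PLIER with no version. Background correction and any normalization between arrays are not given in the sources used here.

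In R 4.3.3, intensities of 45037 probe sets (64 controls left out) were transformed as log2(intensity + 16) and quantile normalized, since the interquartile range differed by 15.1% between arrays. Groups were compared with limma 3.58.1 (lmFit, eBayes) and Benjamini-Hochberg adjustment over all probe sets, with a call at an adjusted p under 0.05. The steps were tested on simulated data. Exact permutation tests were two-sided. Symbols came from the platform annotation, which gave 1 symbol to 34945 probe sets, several to 932 and none to 9160. Related genes were read at their probe set of highest mean intensity. The number of arrays limits the precision.

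The members, lists, tests and alternatives were chosen with earlier results of these data known. Named genes are all members, the listed related genes that passed with up to 3 others a list, and the 5 genes with the highest Pearson correlation to Mki67 and to Top2a. The split by spike signal is into arrays whose Dap 3' control was under or over 100.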

Additional observations from a re-analysis of the deposited data

How the results depend on the processing

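The log2 differences of the 7 member probe sets past the threshold kept their sign under all alternatives fitted to them. Fewer than 7 of them passed with an offset of 64 (2), with ordinary statistics (0), in the 4 arrays of higher spike signal (3), with the spike signal as a block (5) and with the probe sets of a gene averaged (4 genes). Over the settings that leave out 1 array, the count was 2 to 6, that of related genes lower was 4 to 10, and that of all probe sets called was 385 to 906, against 1094 with all arrays (2.43% of those tested). The last was 161 with ordinary statistics, 184 in the 4 arrays and 1981 with array weights, and related genes lower numbered 3 with ordinary statistics and 4 in the 4 arrays. With array weights 1 related gene was higher. The main fit did not pair arrays by replicate number. Deviations from the group means correlated at 0.364, 0.0961 and 0.0055 for numbers 1 to 3. PRDM2 KD arrays 1 and 2 each correlated best with the GFP array of the same number, and PRDM2 KD array 3 with GFP array 2 (0.231). The arrays numbered 3 share the low spike signal. With 3 arrays per group, these correlations cannot settle whether the arrays were paired. With the replicate block 592 probe sets, 3 member probe sets and 4 related genes lower passed.

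The Top2a minus Top2b difference was -2.61 with an offset of 1, -1.52 with an offset of 64, -0.95 with averaged probe sets, and -2.36 to -1.98 with 1 array left out. Ncapg minus Ncapg2 was -1.56 with an offset of 1, -0.37 with an offset of 64, -0.28 with averaged probe sets and -1.11 to -0.45 with 1 array left out. Smc2 minus Smc4 was -0.47 with an offset of 64, -0.11 with averaged probe sets and -1.25 to -0.78 with 1 array left out. Sign changes occurred only at probe sets that did not pass. Top2a 1442454_at was at -0.023 without normalization, -0.0048 with median centring and -0.048 with the Gapdh covariate. Smc2 1429660_s_at was at -0.10 with an offset of 1, and Top2a 1427724_at at 0.0024 in the 4 arrays. Ncapd2 1430010_at was at -0.067 with array weights, -0.026 with the Gapdh covariate and -0.14 in the 4 arrays. With 1 array left out, the ranges were -0.095 to 0.12 for Top2a 1442454_at, -0.25 to 0.23 for Smc4 1427276_at, -0.13 to 0.10 for Smc2 1429660_s_at, -0.093 to 0.10 for Ncapd2 1430010_at and -0.070 to 0.00076 for Top2b 1448458_at. The causes of these changes were not tested.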
